A study of Mus musculus with 24 samples.

Results

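The 10 genes described here encode the contents of neutrophil granules and the alarmins and receptor that accompany them: S100a8, S100a9, Lcn2, Ngp, Camp, Ltf, Elane, Mpo, Mmp9 and Cxcr2. They were chosen by name, as the genes of this list that a probe on the array measured, and all 10 were found, by 11 probes out of 55681 probes and 21159 named genes (Camp had a pair of probes, the others 1 each). The rule that defines the list uses no measured value, but the list was drawn up with earlier results of these data known. RNA of thymocytes from C57BL/6J mice of both sexes was compared on 24 two-colour arrays, 3 per group, in 8 groups: females and males that were non-irradiated (control), that received a dose of 0.075 Gy by X-rays (low dose), a dose of 1.75 Gy by gamma rays (high dose), or the X-ray dose and, 6 h later, the gamma-ray dose, the regimen of the radio-adaptive response (RAR). No group carried a transgene or a deletion, and no group was treated with another agent. Each array gave the log2 ratio of the thymocyte RNA (Cy5 dye) to a common reference, a pool of mouse RNAs (Cy3 dye), so a log2 ratio above 0 means a brighter thymocyte channel and a difference of 1 between groups is a doubling. The thymus was dispersed and passed through a mesh without a sort for cell type, so the RNA can include that of blood and of other thymus cells. The time from irradiation to tissue collection was not given in the sources used here.

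Neutrophils fill their granules in order as they mature in the bone marrow. Primary (azurophil) granules are made in promyelocytes and hold myeloperoxidase (Mpo) and neutrophil elastase (Elane). Secondary (specific) granules are made later and hold lactotransferrin (Ltf), the cathelicidin precursor (Camp), neutrophilic granule protein (Ngp) and lipocalin 2 (Lcn2), while tertiary (gelatinase) granules hold matrix metalloproteinase 9 (Mmp9). The mRNAs of primary and secondary granule proteins are largely shut off by the time a neutrophil enters the blood. S100A8 and S100A9 form the calcium-binding heterodimer calprotectin, which is abundant in the cytosol of neutrophils and monocytes and acts as an alarmin when it is released. CXCR2 is the receptor through which mature neutrophils follow CXC chemokines into tissue. Lcn2, S100a8 and S100a9 are also made by other cells, among them macrophages and epithelium, under inflammatory stimuli.

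In RefSeq's annotation of mouse build GRCm38.p6, S100a8 (chr3:90669071-90670034) and S100a9 (chr3:90692630-90695721) lie 22.6 kb apart, and Camp (chr9:109847377-109849456), Ngp (chr9:110419808-110423012) and Ltf (chr9:111019292-111042766) lie on 1 chromosome, with 1169.8 kb between Camp and Ltf. Lcn2 is at chr2:32384637-32387739, Mmp9 at chr2:164940326-164955850, Elane at chr10:79886312-79888216, Mpo at chr11:87793784-87804412 and Cxcr2 at chr1:74153994-74161246. RefSeq promoter sequence was at hand for 9 of the 10 genes (not Mmp9). C/EBP factors are the main activators of granule genes, and their core site was searched as TTNNGNAA on both strands in the 250 bases before each start. It occurred in 5 of 9 genes (S100a8, S100a9, Lcn2, Ngp and Ltf), and in 36.85% of 32851 mouse promoters of the same length. The 4 windows below belong to 3 of the genes that rose after RAR in both sexes (S100a8, S100a9, Lcn2) and to Ngp. Ngp is shown as a granule gene that went the other way, with a call in males only. Each runs 5′ to 3′ on the gene's strand, and capitals mark the matches.
S100a8 promoter, chr3:90668821-90669070, plus strand: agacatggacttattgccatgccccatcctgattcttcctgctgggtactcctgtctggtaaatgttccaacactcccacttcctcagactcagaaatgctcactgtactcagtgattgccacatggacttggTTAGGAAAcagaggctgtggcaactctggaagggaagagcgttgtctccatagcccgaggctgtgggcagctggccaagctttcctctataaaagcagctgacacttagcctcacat
S100a9 promoter, chr3:90695722-90695971, minus strand: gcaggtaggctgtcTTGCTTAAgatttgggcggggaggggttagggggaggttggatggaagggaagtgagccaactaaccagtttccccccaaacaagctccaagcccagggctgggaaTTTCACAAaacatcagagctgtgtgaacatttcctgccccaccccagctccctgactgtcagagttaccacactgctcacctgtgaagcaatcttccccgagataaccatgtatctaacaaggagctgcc
Lcn2 promoter, chr2:32387740-32387989, minus strand: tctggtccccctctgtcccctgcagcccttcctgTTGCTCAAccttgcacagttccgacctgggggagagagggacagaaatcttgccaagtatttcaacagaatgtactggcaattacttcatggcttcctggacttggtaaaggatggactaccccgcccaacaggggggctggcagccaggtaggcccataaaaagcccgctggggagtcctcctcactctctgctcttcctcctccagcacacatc
Ngp promoter, chr9:110419558-110419807, plus strand: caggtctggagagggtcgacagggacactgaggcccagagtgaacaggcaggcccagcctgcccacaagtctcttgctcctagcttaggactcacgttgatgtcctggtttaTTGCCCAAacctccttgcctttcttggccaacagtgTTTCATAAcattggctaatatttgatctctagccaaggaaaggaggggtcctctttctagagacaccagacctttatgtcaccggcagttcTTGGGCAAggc
S100a8 held 1 match, at position -117 from the start of the gene, and Lcn2 held 1, at position -216. S100a9 held 2 and Ngp held 3, so the motif was present both in genes that rose and in a gene that fell in males after RAR. Cxcr2, which rose in both sexes, and Mpo, which fell in males, held no match. The PU.1 core GAGGAA, searched on both strands, occurred in 6 of 9 genes and in 23.25% of promoters. A match is a description of letters and not a site in use.

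The arrays lay on 3 slides. All female controls were on 1 slide and all females exposed to the high dose on another, and female RAR and control arrays shared no slide either. In females these contrasts with control therefore have no within-slide value, and a fit with slide as a block reaches them only through the slides that other groups share. In the female RAR group 34.7% of spots were well above background in the thymocyte channel on replicate 3 and 71.8% on replicate 2, against 49.3% to 62.8% on the arrays of all other groups. Arrays of the same group correlated at 0.801 to 0.914 over all probes. All 11 thymocyte markers were above background on all 24 arrays, and the mean of their log2 ratios was 5.16 to 5.78 on every female array and 5.29 to 5.79 on every male array. In the thymocyte channel S100a8, S100a9, Lcn2, Ngp, Camp, Ltf, Elane and Mpo were above background on all 24 arrays, Cxcr2 on 19 and Mmp9 on 14. The reference channel was above background on 6 arrays for Ngp, 2 for Ltf and 2 for Cxcr2, so the ratios of these 3 genes rest on a dim denominator.

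A gene is said to have risen or fallen where limma, fitted across all 55681 probes, gave an adjusted p under 0.05 and the change was at least 1.5-fold. By that rule 2 of the 10 genes rose and none fell in females after the high dose, where 7.89% of all probes were called (4.23% higher and 3.65% lower). After the low dose 3 rose, where 8.77% of probes were called (4.76% higher and 4% lower), and after RAR 4 rose (S100a8, S100a9, Lcn2 and Cxcr2), where 20.5% of probes were called (9.64% higher and 10.8% lower). In males 4 rose after the high dose, where 10.6% of probes were called (5.2% higher and 5.38% lower), and 5 rose after the low dose, where 6.65% were called (3.21% higher and 3.44% lower). After RAR 4 rose (the same 4 as in females) and 2 fell (Ngp and Mpo) in males, where 24.6% of probes were called (11.2% higher and 13.4% lower). The median change over the 10 genes was -0.01 in females and 0.49 in males for RAR, against -0.05 to 0.00 over all probes in the comparisons with control. The comparisons with control of 1 sex share their 3 control arrays. In this bulk RNA more cells of a type and more RNA per cell cannot be told apart.

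S100a8, the smaller calprotectin subunit, rose after the low dose, the high dose and RAR in both sexes, and its partner S100a9 rose after RAR in both sexes and after each single dose in males. Lcn2, which binds bacterial siderophores, followed S100a8 in 5 of the 6 comparisons with control, and Cxcr2 rose in all 6.

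In control females the log2 ratio of S100a8 was 2.15, 1.77 and 2.33 (mean 2.08 ± 0.29 SD, n = 3). It was 3.92, 3.23 and 3.19 after the low dose, 3.53, 3.26 and 3.29 after the high dose, and 4.41, 4.99 and 5.0 after RAR. Every irradiated female array lay above every control array, and the 3 RAR arrays lay above all of the others. S100a8 was 2.57-fold higher after the low dose (log2 difference 1.36 ± 0.28 SE, adjusted p = 0.00258), 2.42-fold higher after the high dose (1.27 ± 0.28, adjusted p = 0.00487) and 6.58-fold higher after RAR (2.72 ± 0.28, adjusted p = 1.00e-06). With slide as a block the high dose call was lost (1.65, adjusted p = 0.0626) and those of the low dose (1.43, adjusted p = 0.0118) and RAR (3.0, adjusted p = 0.000147) were kept. In control males the values were 1.16, 1.5 and 2.29. They were 3.64, 3.69 and 3.62 after the low dose, 3.73, 3.77 and 4.09 after the high dose, and 4.31, 4.43 and 3.54 after RAR. All 9 irradiated male arrays were above the controls, but the RAR arrays overlapped with those of both single doses. The rise in males was 3.99-fold after the low dose (adjusted p = 0.00013), 4.63-fold after the high dose (adjusted p = 2.83e-05) and 5.43-fold after RAR (adjusted p = 2.10e-06).

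S100a9, the larger subunit, was far brighter than the reference on every array. In control females its log2 ratio was 6.70, 6.04 and 6.77, against 7.09, 6.76 and 6.91 after the low dose, 6.67, 6.60 and 6.66 after the high dose, and 7.33, 7.51 and 7.70 after RAR. The RAR arrays stood above all other female arrays, whereas the high dose arrays lay within the control range. S100a9 was 2.01-fold higher after RAR than in control females (log2 difference 1.01 ± 0.18 SE, adjusted p = 0.000225). The differences from control were 0.41 ± 0.18 after the low dose (adjusted p = 0.142) and 0.14 ± 0.18 after the high dose (adjusted p = 0.737). In control males the values were 6.03, 6.14 and 6.51, against 7.06, 7.27 and 6.92 after the low dose, 7.05, 7.0 and 7.27 after the high dose, and 7.65, 7.47 and 7.36 after RAR. All irradiated male arrays were above all male controls. The rise was 1.81-fold after the low dose (adjusted p = 0.00376), 1.84-fold after the high dose (adjusted p = 0.00178) and 2.4-fold after RAR (adjusted p = 1.68e-05).

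The thymocyte channel of S100a9 changed more than its ratio did, and the reference channel of its spot changed in the same direction. Scaled to each array's 75th percentile, the log2 Cy5 signal of S100a9 was 4.32 in control females and 7.0 after RAR, and 3.94 and 6.27 in males. The log2 Cy3 signal of the same spot, which came from 1 reference pool, was -2.19 ± 0.26 in control females and -0.53 ± 0.13 after RAR, and -2.28 ± 0.21 and -1.24 ± 0.53 in males. For S100a8 in females Cy3 was 1.13 in controls and 0.88 after RAR. The cause of the Cy3 difference was not tested. The Cy5 signal taken alone shifted the median of all probes by 0.64 in females and 0.33 in males between RAR and control. Relative to those medians, Cy5 rose by 2.04 in females and 2.01 in males for S100a9, and by 1.85 and 1.93 for S100a8. With Cy5 alone S100a9 also passed in females after the low dose (1.45, adjusted p = 0.0012) and after the high dose (1.37, adjusted p = 0.0015), where the ratio did not.

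**Figure D1:**
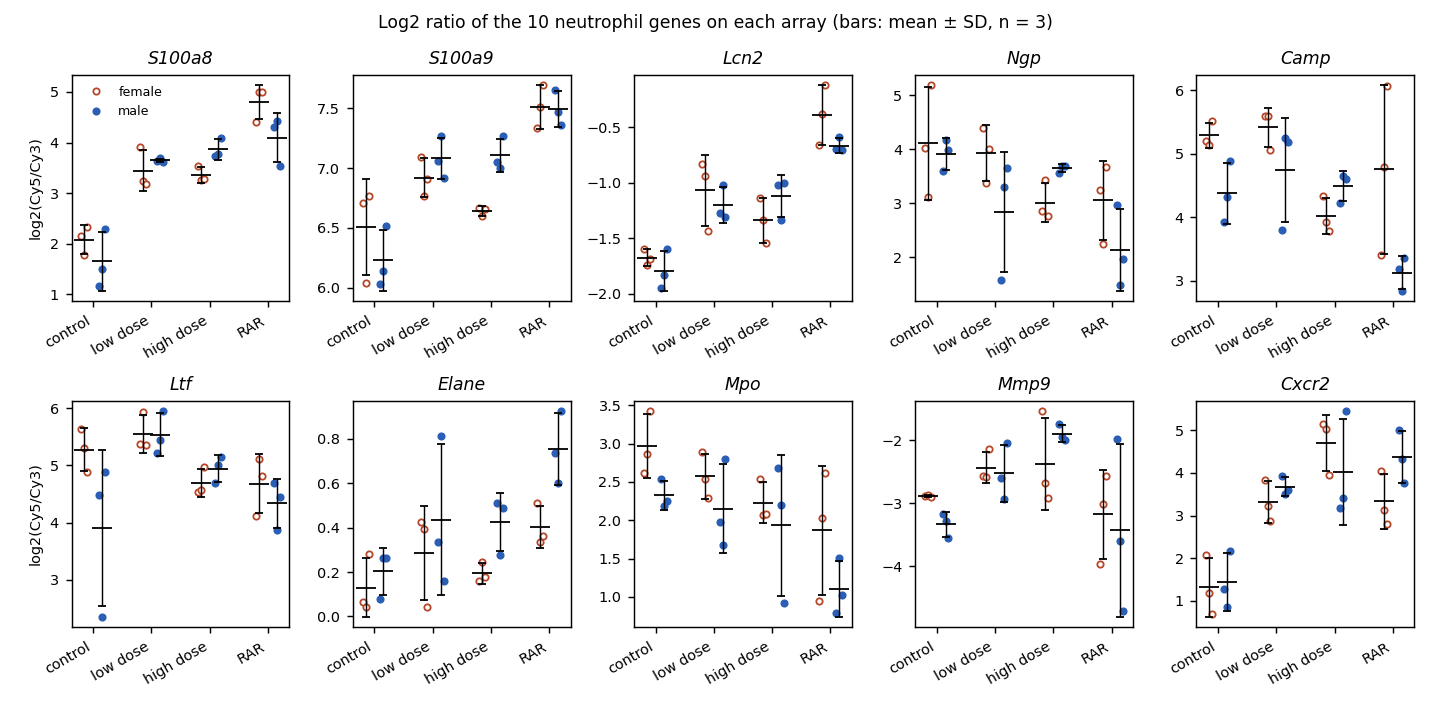
Log2 ratio of thymocyte (Cy5) to reference (Cy3) signal on each of the 24 arrays, with 1 panel per gene, groups on the x axis, females and males in separate colours, points for arrays and bars for group means. S100a8, Lcn2 and Cxcr2 lie above the controls of the same sex on all irradiated arrays, while Ngp, Camp and Mpo of RAR males lie below the male controls.

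Lcn2 kept a narrow spread within groups. In control females its log2 ratio was -1.59, -1.74 and -1.69, against -0.83, -0.94 and -1.43 after the low dose, -1.13, -1.34 and -1.54 after the high dose, and -0.66, -0.39 and -0.12 after RAR. All irradiated female arrays were above all controls, with the RAR arrays the highest. Lcn2 was 2.44-fold higher after RAR (log2 difference 1.28 ± 0.17 SE, adjusted p = 1.13e-05) and 1.52-fold higher after the low dose (0.61 ± 0.17, adjusted p = 0.0188). The difference after the high dose was 0.34 ± 0.17 (adjusted p = 0.228). In control males the values were -1.95, -1.83 and -1.60, against -1.27, -1.02 and -1.31 after the low dose, -1.02, -1.34 and -1.0 after the high dose, and -0.70, -0.59 and -0.71 after RAR. The order of the groups was the one seen in females for control and RAR, and the ranges of the single doses overlapped with each other. In males Lcn2 rose 2.18-fold after RAR (adjusted p = 3.31e-05), 1.59-fold after the high dose (adjusted p = 0.0086) and 1.51-fold after the low dose (adjusted p = 0.0277). Both low dose calls were lost when any of several single arrays was left out (controls 2 or 3 or low dose 1 or 2 in females, controls 1 or 2 or low dose 1 or 2 in males). With slide as a block the female low dose difference was 0.48 (adjusted p = 0.154) and the male high dose difference 0.57 (adjusted p = 0.0908). In Cy5 alone, relative to the median of all probes, Lcn2 was higher after RAR by 0.34 in females and 0.66 in males.

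**Figure D2:**
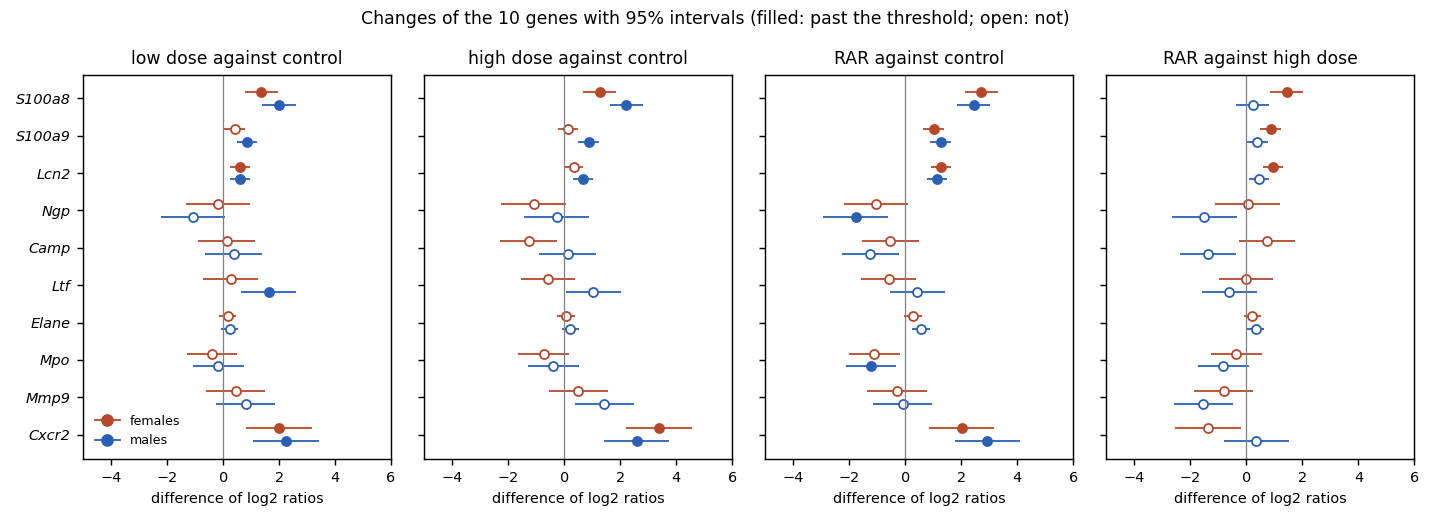
Log2 difference from control (with its 95% confidence interval from the limma fit) of the 10 genes after low dose, high dose and RAR, in females and in males. After RAR S100a8, S100a9, Lcn2 and Cxcr2 sit above 0 in both sexes, and Ngp and Mpo sit below 0 in males.

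The other secondary granule genes did not follow Lcn2. Ngp and Camp were lower in males that went through RAR, Ltf was higher in males after the low dose as a ratio but not in its thymocyte channel, and none of the 3 passed in any female comparison. Their spread within groups reached an SD of 1.11 for Ngp, 1.33 for Camp and 1.37 for Ltf, against 0.32 for Lcn2.

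In control males the log2 ratio of Ngp, a granule protein of the cystatin family, was 3.59, 4.17 and 3.98, and after RAR it was 2.97, 1.49 and 1.97. The groups did not overlap, and Ngp was 3.42-fold lower after RAR (log2 difference -1.77 ± 0.55 SE, adjusted p = 0.0177). After the low dose the male values were 1.58, 3.30 and 3.64, and after the high dose 3.56, 3.69 and 3.68. In females Ngp was 4.02, 3.11 and 5.19 in controls, 4.4, 3.37 and 4.01 after the low dose, 2.85, 3.42 and 2.76 after the high dose, and 3.24, 2.25 and 3.67 after RAR. The female groups overlapped, and RAR differed from control by -1.05 ± 0.55 (adjusted p = 0.18). Scaled to each array's 75th percentile, the female log2 Cy5 signal was -0.50 in controls and -0.51 after RAR. The Cy3 signal of that spot was -4.61 ± 0.89 and -3.59 ± 1.57, so the female difference of the ratio lay in the dim reference channel. In males Cy5 was -1.22 in controls and -2.61 after RAR. The male call was lost without control replicate 2, RAR replicate 2 or RAR replicate 3 (adjusted p up to 0.0846) and with slide as a block (-1.28, adjusted p = 0.229), and it missed the threshold with quantile normalization (adjusted p = 0.0503).

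Camp encodes the precursor of the antimicrobial peptide CRAMP. In control males it was 3.93, 4.31 and 4.88, against 3.80, 5.25 and 5.18 after the low dose, 4.23, 4.65 and 4.60 after the high dose, and 3.18, 2.84 and 3.35 after RAR. The 3 RAR males were below every other male array. Camp fell 3.08-fold between the low dose and RAR (log2 difference -1.62 ± 0.48 SE, adjusted p = 0.0259), and the difference between RAR and control was -1.25 ± 0.48 (adjusted p = 0.0553). That difference passed under 7 of 12 alternatives, among them normexp (-1.13, adjusted p = 0.0153) and Cy5 alone (-1.50, adjusted p = 0.013), and without female RAR replicate 1 or 3 or male low dose replicate 1. The 7 include the dim-probe filter, which left the values unchanged, and removal of outlying replicates, which shrinks the spread. The difference was -0.84 with slide as a block (adjusted p = 0.364) and -0.88 with quantile normalization (adjusted p = 0.447). The second Camp probe gave -1.25 ± 0.49 for RAR against low dose (adjusted p = 0.0974), the same direction without a call, and slide as a block gave -1.21 (adjusted p = 0.259). The call of the first probe was also lost without RAR replicate 1 or 2 or low dose replicate 2 or 3, with differences from -2.09 to -1.37 over the arrays left out. In females Camp was 5.21, 5.14 and 5.52 in controls, 5.59, 5.60 and 5.06 after the low dose, 4.33, 3.92 and 3.78 after the high dose, and 3.41, 4.79 and 6.07 after RAR. The female RAR arrays spanned the range of all other female groups, and RAR differed from control by -0.53 ± 0.48 (adjusted p = 0.485).

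Ltf encodes lactotransferrin, the iron-binding protein of secondary granules. In control males it was 4.48, 2.35 and 4.89, against 5.23, 5.44 and 5.95 after the low dose, 4.69, 5.01 and 5.14 after the high dose, and 4.70, 3.87 and 4.44 after RAR. Control replicate 2 stood far below the others. Ltf was 3.1-fold higher after the low dose than in control males (log2 difference 1.63 ± 0.47 SE, adjusted p = 0.0297). Without control replicate 2 the difference was 0.85 (adjusted p = 0.121), with normexp background correction it was 0.08 (adjusted p = 0.915), and in the Cy5 channel alone it was -0.14 (adjusted p = 0.877). The Cy5 signal of Ltf in male controls was -0.22 ± 0.23, while the Cy3 signal of that spot was -4.12 ± 1.58, and the spread was in the reference channel. In females Ltf was 5.64, 5.30 and 4.89 in controls, 5.37, 5.94 and 5.35 after the low dose, 4.54, 4.58 and 4.98 after the high dose, and 4.12, 5.11 and 4.82 after RAR. No female comparison passed.

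Of the primary granule genes, Mpo, which makes hypochlorous acid, fell in males after RAR, in a call that several settings and left-out arrays ended. Elane, the serine protease neutrophil elastase, passed in no comparison. Mpo was 2.54, 2.19 and 2.25 in control males, 1.98, 1.67 and 2.79 after the low dose, 2.69, 2.20 and 0.91 after the high dose, and 0.79, 1.5 and 1.02 after RAR. The RAR males lay below all controls, and Mpo was 2.33-fold lower than in controls (log2 difference -1.22 ± 0.43 SE, adjusted p = 0.0364). This call was lost without any 1 of the 3 controls or of RAR replicates 1 and 3 (adjusted p up to 0.122), with slide as a block (-1.33, adjusted p = 0.127) and with replicate number as a block (adjusted p = 0.0525). In females Mpo was 2.61, 2.87 and 3.42 in controls, 2.89, 2.53 and 2.29 after the low dose, 2.54, 2.06 and 2.08 after the high dose, and 0.95, 2.03 and 2.62 after RAR. The female difference between RAR and control was -1.10 ± 0.43 (adjusted p = 0.0658).

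Elane had log2 ratios between 0.04 and 0.92 on all 24 arrays. In control males its log2 ratio was 0.08, 0.26 and 0.26, and after RAR it was 0.74, 0.60 and 0.92, with no overlap. The difference was 0.55 ± 0.15 SE, a 1.47-fold change (adjusted p = 0.00703). The male values were 0.34, 0.81 and 0.16 after the low dose and 0.51, 0.28 and 0.49 after the high dose. In females Elane was 0.06, 0.04 and 0.28 in controls, 0.43, 0.39 and 0.04 after the low dose, 0.16, 0.25 and 0.18 after the high dose, and 0.51, 0.33 and 0.36 after RAR (RAR against control adjusted p = 0.203). All 6 RAR arrays lay above every control array of their sex. In Cy5 alone, relative to the median of all probes, the RAR change turned to -0.19 in females and -0.05 in males, so the direction for Elane depended on the scaling.

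Mmp9, the gelatinase of tertiary granules, was at the limit of measurement and passed in no comparison. In control females it was -2.88, -2.86 and -2.90, with no array above background in the thymocyte channel. After RAR it was -3.96, -3.01 and -2.56 in females and -1.98, -3.59 and -4.72 in males, with 1 array above background in each sex. The high dose group was the only treatment with all arrays above background in both sexes, at -1.53, -2.67 and -2.91 in females and -1.74, -1.94 and -2.0 in males. The male high dose values lay above the male controls (-3.17, -3.28 and -3.55, log2 difference 1.44 ± 0.50, adjusted p = 0.0586). The low dose gave -2.56, -2.59 and -2.14 in females and -2.60, -2.94 and -2.04 in males.

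Cxcr2, the chemokine receptor of mature neutrophils, was well above background on 1 of the 6 control arrays and on all 18 irradiated arrays. In control females its log2 ratio was 2.07, 1.18 and 0.70, with no array above background in the thymocyte channel. It was 3.83, 3.23 and 2.87 after the low dose, 5.14, 5.02 and 3.96 after the high dose, and 4.05, 3.13 and 2.81 after RAR, with all 9 arrays above background. The groups did not overlap with control. The log2 ratio was higher than in controls by 2.0 ± 0.55 SE after the low dose (adjusted p = 0.0193), 3.39 ± 0.55 after the high dose (adjusted p = 0.000419) and 2.01 ± 0.55 after RAR (adjusted p = 0.00955). Since the control signal was not well above background, its Cy5 brightness can only be bounded. Against the dimmest signal that counted as above background, normalized Cy5 was at least 3.08-fold higher after the low dose, 4.64-fold after the high dose and 6.88-fold after RAR. These bounds concern the Cy5 channel and not the tested ratio, whose RAR change (4.04-fold) was smaller than the last of them. In control males the values were 1.28, 0.85 and 2.18, with 1 array above background, against 3.94, 3.5 and 3.60 after the low dose, 3.18, 3.42 and 5.45 after the high dose, and 5.0, 4.32 and 3.77 after RAR. The male log2 ratios were higher by 2.25 ± 0.55 after the low dose (adjusted p = 0.0126), 2.58 ± 0.55 after the high dose (adjusted p = 0.00301) and 2.93 ± 0.55 after RAR (adjusted p = 0.000383). The sizes of these changes are uncertain, since the signal was well above background on 1 of the 3 male control arrays and the reference on 2 of the 24 arrays. With background correction by normexp the RAR change of the ratio was smaller, 1.20 on the log2 scale in females and 1.15 in males. Without control replicate 3 or RAR replicate 1 the female RAR call was lost (adjusted p up to 0.0539), and with slide as a block so were the female calls after RAR (2.28, adjusted p = 0.079) and after the low dose (1.96, adjusted p = 0.078).

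RAR adds a low dose ahead of the high dose, so RAR against high dose asks what the priming changed. In females S100a8 was 2.72-fold higher after RAR than after the high dose alone (log2 difference 1.44 ± 0.28 SE, adjusted p = 0.00348), S100a9 1.83-fold (0.87 ± 0.18, adjusted p = 0.0044) and Lcn2 1.93-fold (0.95 ± 0.17, adjusted p = 0.00172). These 3 of the 10 genes rose and none fell, where 7.3% of probes were called (4% higher and 3.3% lower). Relative to the median of all probes in Cy5 alone, which moved by 0.39, the same differences were 0.91, 0.92 and 0.55. In males none of the 10 passed, where 5.89% of probes were called (3.1% higher and 2.79% lower). The male differences were 0.23 ± 0.28 for S100a8 (adjusted p = 0.695), 0.39 ± 0.18 for S100a9 (adjusted p = 0.191) and 0.45 ± 0.17 for Lcn2 (adjusted p = 0.0972). The unadjusted limma p was under 0.05 for 6 of the 10 genes, and for 13116 of the 55681 probes. Cxcr2 differed by -1.37 ± 0.55 in females (adjusted p = 0.122) and 0.35 ± 0.55 in males (adjusted p = 0.779). In females its log2 Cy5 signal, scaled to each array's 75th percentile, was -1.20 after the high dose and -0.50 after RAR. The log2 Cy3 signal of that spot was -5.90 ± 0.60 and -3.85 ± 1.05. The negative difference of the ratio thus came with a brighter reference channel and not with a dimmer thymocyte channel.

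Against the low dose alone, S100a8 was 2.56-fold higher after RAR in females (1.36 ± 0.28, adjusted p = 0.00765) and Lcn2 1.6-fold (0.68 ± 0.17, adjusted p = 0.0211). These 2 genes rose, where 4.14% of probes were called (2.28% higher and 1.86% lower). S100a9 was 0.59 ± 0.18 higher and reached the threshold without passing it (adjusted p = 0.05). The S100a8 call was lost without low dose replicate 3 (adjusted p = 0.0514), and the Lcn2 call without RAR replicate 2 or 3 or low dose replicate 3, or with slide as a block (0.66, adjusted p = 0.0866). In males 1 gene, Camp, fell and none rose, where 9.78% of probes were called (4.98% higher and 4.8% lower). Lcn2 in males was 1.45-fold higher (0.53 ± 0.17, adjusted p = 0.0349), under the required fold.

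No sex difference passed for any of the 10 genes, with 0.21% of probes called between male and female controls, 0.228% after the low dose, 0.304% after the high dose and 0.438% after RAR. The lowest unadjusted p after RAR was that of Camp, which was lower in males than in females (log2 difference -1.63 ± 0.48 SE, adjusted p = 0.188). S100a8 was also lower in RAR males than in RAR females (-0.71 ± 0.28, adjusted p = 0.329), and Elane was higher in RAR males (0.35 ± 0.15, adjusted p = 0.357). Whether the radiation response itself differed by sex was tested as an interaction of sex and treatment, which called 0.00359% of probes and none of the 10 genes (smallest adjusted p = 0.744). Camp and S100a8 had the clearest single terms. The change from high dose to RAR was 2.11 log2 units lower in males for Camp (-2.11 ± 0.68, adjusted p = 0.956) and 1.21 lower for S100a8 (-1.21 ± 0.40, adjusted p = 0.959). So the calls of S100a8, S100a9 and Lcn2 for RAR against high dose in females, and their absence in males, are not shown to differ between the sexes.

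**Figure D3:**
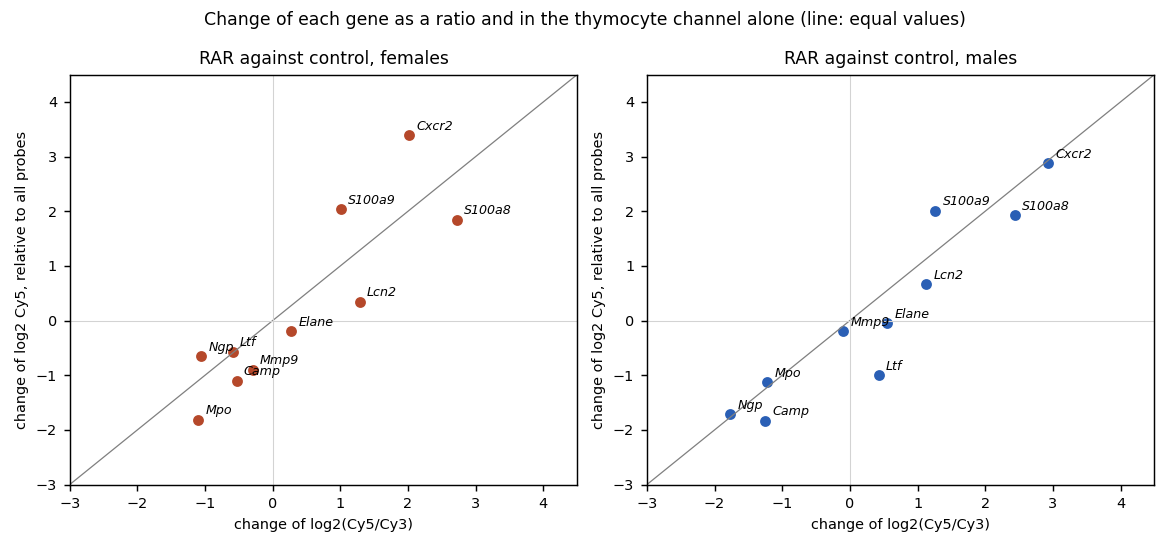
Change from control to RAR of each gene as the log2 ratio (x axis) against the change of the log2 Cy5 signal alone, less the median change of all probes (y axis), for females and males, with a line at equal values. S100a8, S100a9, Lcn2 and Cxcr2 are above 0 on both axes in both sexes, while Elane changes sign and Ltf in males is above 0 only as a ratio.

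Genes around the 10 in the same pathways were read from 9 lists (69 genes), and the counts below are for RAR against control. Of all 21159 named genes, 10.6% rose and 15.1% fell in females in that comparison, and 13.1% rose and 17.4% fell in males. Of the tertiary granule and mature neutrophil genes, 8 of 11 rose in females and 7 of 11 in males, with median changes of 1.51 and 2.14. Retnlg and Mmp25, which are also on the neutrophil marker list below, were not among those that rose in females. The female count was 4 with slide as a block and 6 without RAR replicate 2, and with Cy5 alone, which moves all probes upwards, all 11 passed in each sex. Clec4d, a C-type lectin of neutrophils and monocytes, changed most, by 94.6-fold in females (log2 difference 6.56 ± 0.27 SE, adjusted p = 2.18e-11) and 125-fold in males (6.97 ± 0.27, adjusted p = 5.58e-12). Adam8, a membrane metalloproteinase, rose 9.19-fold in females and 12.2-fold in males. Among the other secondary granule genes 5 of 10 rose in females (Chil3, Hp, Itgam, Lyz2 and Ncf1) and 8 of 10 in males (these and Cd177, Cybb and Mmp8), and none fell. With Cy5 alone 9 of the 10 passed in females. That setting called 24041 of the 55681 probes in females (69.2% of them higher) and 16281 in males (53% of them higher). Chil3, a chitinase-like lectin, rose 12.1-fold in females (3.60 ± 0.40, adjusted p = 2.39e-06) and 27.9-fold in males (4.80 ± 0.40, adjusted p = 6.43e-08). Haptoglobin (Hp) rose 5.81-fold and 9.81-fold. Itgam, Lyz2, Ncf1 and Cybb are also expressed by macrophages, and Clec4d by monocytes, so neither of these lists is particular to neutrophils.

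The other primary granule genes did not rise with them. In females Ctsg (cathepsin G) fell 3.29-fold (-1.72 ± 0.55, adjusted p = 0.0258) and Prss57, a serine protease, fell 6.47-fold (-2.69 ± 0.57, adjusted p = 0.00123). In males Prss57 fell 8.86-fold (-3.15 ± 0.57, adjusted p = 0.000242) and Fcnb (ficolin B) rose, so that 2 of 6 fell and none rose in females, and 1 of 6 fell and 1 rose in males. The list medians were 0.25 and -0.00. In Cy5 alone, with its upward shift of all probes, 3 of the 6 rose and 1 fell in females.

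The transcription factors of the granulocyte line rose with the alarmins, as 5 of 6 passed upwards in each sex (Cebpa, Cebpb, Cebpd, Cebpe and Spi1). Cebpb, which drives emergency granulopoiesis and inflammatory genes in macrophages, rose 9.18-fold in females (3.20 ± 0.20, adjusted p = 3.93e-09) and 15.1-fold in males (3.92 ± 0.20, adjusted p = 2.33e-10). Cebpd rose 5.63-fold and 8.40-fold. With normexp background correction 3 of the 6 passed in each sex. Of the receptors for chemoattractants and growth factors, 6 of 10 rose in females and 8 of 10 in males. Ptafr, the receptor of platelet-activating factor, rose 14.4-fold in females (adjusted p = 0.000234) and 9.30-fold in males (adjusted p = 0.000996), and Csf3r, the G-CSF receptor, rose 2.92-fold in females. Cxcr4, which holds neutrophils in the marrow and is also a thymocyte gene, fell 1.52-fold in females (-0.60 ± 0.12, adjusted p = 0.000991).

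Of the 6 genes in the list of CXCR2 ligands and Csf3, 3 rose in females after RAR (Cxcl1, Cxcl2 and Cxcl5) and 4 in males (these and Cxcl3). In males 3 passed with normexp and 3 with slide as a block, and in females 5 passed with Cy5 alone. Cxcl1 in males rose 3.78-fold (1.92 ± 0.36, adjusted p = 0.000354) and Cxcl2 by 4.60 ± 0.44 log2 units as a ratio (adjusted p = 2.93e-07), with a Cy5 signal at least 5.77-fold higher. Of the alarmin receptors 2 of 4 rose in each sex, Tlr4 (in males at least 4.87-fold in Cy5 signal) and Cd36 (in males 5.32-fold). The protease inhibitors rose in 3 of 5 genes in females and 4 of 5 in males, with Slpi, an inhibitor of elastase and cathepsin G, up 5.24-fold and 7.79-fold. Among the other S100 genes 5 of 9 rose in females and 4 of 9 in males. S100a6 was higher by 2.03 log2 units in females and 2.36 in males, and S100a4 by 1.85 and 2.12, and both are expressed widely outside the myeloid line.

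**Figure D4:**
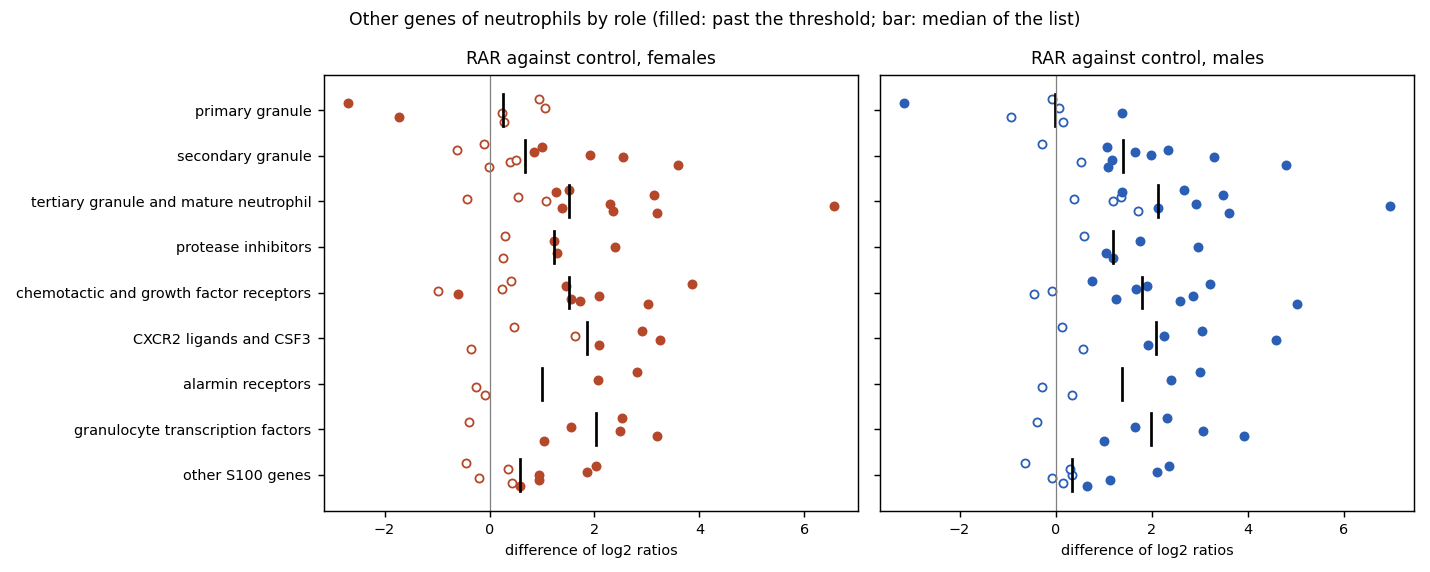
Log2 difference between RAR and control for every measured gene of the 9 pathway lists, females and males in separate colours, with a bar at each list median. The transcription factors and the CXCR2 ligands have medians of about 2 (2.02 and 1.98, 1.86 and 2.09), and the other primary granule genes have medians of 0.25 and -0.00.

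Against the high dose alone, fewer of these genes passed after RAR. Of all named genes, 5.15% rose and 4.12% fell in females in that comparison, and 4.67% rose and 3.54% fell in males. Cebpa and Cebpb rose in females and 4 of the 6 transcription factors in males, and 3 of the 5 protease inhibitors rose in each sex. None of the CXCR2 ligands passed in either sex. Fpr1, a formyl peptide receptor, fell 7.68-fold in females (-2.94 ± 0.59, adjusted p = 0.00412) and 3.95-fold in males (adjusted p = 0.0387), and Fpr2 fell in females. Cd177, a neutrophil surface protein, fell in females too. As log2 ratios, S100a8, S100a9 and Lcn2 in females thus stood above the high dose after RAR, while Fpr1, Fpr2 and Cd177 stood below it. In the thymocyte channel Fpr2 was above background on all 24 arrays, Fpr1 on 15 and Cd177 on 8. No Cy5 change of Fpr1, Fpr2 or Cd177 is given here, so the part of the reference channel in their falls was not tested.

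Markers of other cells moved along with the alarmins, and their part in the changes above was not tested. A list of neutrophil markers without any of the 10 genes (9 of 10 measured) had array means of 1.99 to 2.17 in control females, 2.76 to 3.25 after the low dose, 2.68 to 3.28 after the high dose and 2.15 to 2.67 after RAR. As log2 ratios the female RAR arrays were thus lower in these markers than the single-dose arrays, whereas S100a8 was highest there. The gap was narrow, at most 2.67 after RAR against at least 2.68 after the high dose. In the thymocyte channel Cd177 was above background on 8 arrays, Mmp25 on 11 and Fpr1 on 15. The list mean thus rests partly on background signal, and whether the gap holds without these dim genes was not tested. No Cy5 value of this list is given here. With Cy5 alone 85% of the probes called for RAR against high dose in females were higher. In males the means were 1.93 to 2.09 in controls, 2.52 to 2.97 after the low dose, 2.83 to 3.18 after the high dose and 3.06 to 3.64 after RAR. Of the 9 markers, 3 rose after RAR in females (Asprv1, Csf3r and Trem1) and 6 in males, with none falling. The defining marker Ly6g was not matched to a probe.

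The monocyte and macrophage list of 11 genes was at 1.39 to 2.01 in control females, 1.67 to 1.89 after the low dose, 1.69 to 1.79 after the high dose and 2.24 to 2.60 after RAR. In males it was at 1.23 to 1.67, 1.43 to 1.76, 1.61 to 1.82 and 2.72 to 3.13. In both sexes the RAR arrays were above all others, and 7 of the 11 markers in females and 6 in males rose between the high dose and RAR. Of all named genes 5.15% in females and 4.67% in males rose between these groups. Against control 4 rose and 1 fell in females and 7 rose in males, with Fcgr1, the high affinity IgG receptor, up 12.6-fold and 26.4-fold. After the single doses the ranges of this list overlapped those of the controls, whereas S100a8 was 2.42-fold to 4.63-fold higher than in controls. The B cell list moved the other way, with 3 of 7 markers lower in females and 4 of 7 in males.

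The epithelial list of 6 genes was at 0.62 to 1.05 in control females and 0.66 to 0.83 in control males, and at most at 0.17 on every irradiated array of either sex. After RAR Psmb11, a proteasome subunit of the cortical epithelium, fell in both sexes, Cdh1 fell in females and Krt8 rose in both sexes. The dendritic cell list lay at 2.32 to 2.46 in RAR males, above all other arrays, against 1.38 to 1.83 in control males, while in females RAR (1.71 to 1.81) lay within the control range. The list for eosinophils, mast cells and basophils was lower after RAR than in controls, at 1.38 to 2.03 against 2.36 to 2.57 in females and 1.95 to 2.06 against 2.10 to 2.40 in males. Of its genes, Epx and Mcpt8 were above background on no array and Fcer1a on 1, so its mean rests partly on background signal. The part of these shifts in the changes of the 10 genes was not tested. In the erythroid, platelet, stromal and progenitor lists at most 2 genes passed in a direction after RAR. Among the markers reported here, Xcr1, Epx, Mcpt8, Klf1, Ppbp and Gp5 were above background on no array.

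The genes whose log2 ratio ran most closely with the 2 alarmins over the 24 arrays were found among 9950 genes above background on all of them. The measure was Pearson's r with the mean of the standardised S100a8 and S100a9 values. The 5 highest were Id1 (0.949), Plaur (0.945), Flrt3 (0.940), Cd300lf (0.939) and Cebpb (0.938). The 24 arrays fall into treatment groups and share the reference and the slides, so these values describe a shared order of groups.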

How the data were processed

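Per the labels and the study's methods, thymocyte RNA labelled with Cy5 was hybridised with a Cy3-labelled mouse reference RNA, with no dye swap, and each group held 3 independent samples. The authors scanned the arrays and extracted them with Agilent Feature Extraction (version 11.5.1.1 in the file headers), which subtracts background and normalizes the dyes, and deposited the resulting intensity values of both channels. A table of log2 ratios (Cy5 over Cy3) for each probe was deposited as well.

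Here log2(Cy5/Cy3) of the processed intensities was used without further centring, control and outlier-flagged spots were left out, and spots of a probe were averaged. Probes were named through their accession in the RefSeq gene table (28039 probes named). Where several probes measured a gene, the brightest in Cy5 on average was used, and the other Camp probe is given too. One limma fit (limma 3.58.1, R 4.3.3) of 8 group means on all 24 arrays had 16 residual degrees of freedom, and p-values were adjusted by Benjamini-Hochberg over 55681 probes. Calls needed an adjusted p under 0.05 and 1.5-fold. With 3 arrays against 3 an exact permutation test cannot go below p = 0.1, so no single-gene exact test is given. Where all arrays of the dim group were not well above background, lower bounds on the fold are given for Cy5 after Aquantile normalization: the bright group's mean Cy5 against, per array, the higher of the lowest signal well above background and the probe's own. The fit was tested on simulated data.

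The genes, the pathway lists and the marker lists were chosen with earlier results of these data known. Named from each pathway list were at most the 2 genes that rose and the 2 that fell most in a comparison, with groups that do not overlap and Cy5 above background on all arrays of the brighter group. From each marker list at most 1 each way was named, and members of short counts were named besides. Alternatives were the deposited table, normexp background correction (offset 50) with loess, quantile normalization, Cy5 alone scaled to the 75th percentile, a filter on dim probes, array weights, slide or replicate number as a block, removal of outlying replicates, a higher fold limit, and leaving out each array. Nothing states that the independent samples are separate litters or days, so p-values measure the spread between these samples.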

Additional observations from a re-analysis of the deposited data

How the results depend on the processing

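Of 30 calls of the 10 genes in the 10 treatment comparisons (27 up, 3 down), 19 stood whichever single array was left out. Kept were 30 with the deposited table, 30 with the dim-probe filter, 29 with normexp, 28 with array weights, 26 with Cy5 alone, 24 with quantile normalization and 21 with slide as a block. The deposited table held the same ratios (100% of values within 0.01 on every array), so its count could hardly differ. The dim-probe filter left the values of the 10 genes as they were and changed only which probes were tested. These 2 counts are therefore no independent check. In males on slide 2, where 1 RAR and 1 control array lay, the RAR differences were 3.15 for S100a8, 1.62 for S100a9, 1.25 for Lcn2, 3.72 for Cxcr2, -0.62 for Ngp and -1.75 for Mpo. Ltf after the low dose in males turned to -0.136 with Cy5 alone. With slide as a block the number of genes called was 1 for high dose against control, 1 for low dose against control and 1 for RAR against low dose in females, and 0 for RAR against low dose in males. With a fold limit of 1.5 on the log2 scale it was, in females, 1 for high dose, 1 for low dose and 2 for RAR against control, and 0 for RAR against either dose. In males it was 2, 3 and 3 against control. With the array farthest from its group removed for each gene, a step that shrinks the spread by construction, it was 5 for high dose against control and 5 for RAR against high dose in females, 6 for RAR against high dose and 7 for RAR against low dose in males, 6 between the sexes after RAR and 10 for the interaction. With values more than 1 log2 unit from the other 2 of their group removed, it was 5 for RAR against high dose and 4 for RAR against low dose in females, 5 and 5 in males, 5 between the sexes after RAR and 4 for the interaction. Quantile normalization gave 4 for RAR against low dose in females, 3 for low dose against control and 1 for RAR against high dose in males. In males normexp gave 2 for RAR against high dose and 2 for RAR against low dose, Cy5 alone gave 2 for RAR against high dose, the dim-probe filter 2 for the same comparison, and array weights 0 for RAR against low dose. Cy5 alone called 2 genes between the sexes after RAR. The share of all probes called is not given beside these counts, nor for the left-out arrays below. The counts, that of 10 for the interaction among them, thus cannot be read as results about the 10 genes.

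Leaving out each array in turn gave, in females, 2 to 3 genes called for high dose, 1 to 3 for low dose and 3 to 6 for RAR against control, 3 to 4 for RAR against high dose and 0 to 3 for RAR against low dose. In males it gave 4 to 5, 2 to 5 and 4 to 7 against control, 0 to 1 against high dose and 0 to 2 against low dose. Between the sexes after RAR it gave 0 to 1, and 0 for the interaction.

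The share of called probes that were higher moved with the scaling. For RAR against control it was 47.1% in females and 45.7% in males as reported, 69.2% and 53% with Cy5 alone, and 64.7% and 66.7% with normexp. For RAR against high dose it was 54.8% and 52.6% as reported, 85% and 51.1% with Cy5 alone, and 84.5% and 82.7% with normexp. For RAR against low dose it was 55.1% and 50.9%, 79.3% and 50.3%, and 84.3% and 78.2%. For single doses normexp gave 65.3% (high dose, females), 69.6% (high dose, males), 68.8% (low dose, females) and 70.6% (low dose, males), against 53.7%, 49.1%, 54.3% and 48.3% as reported. Same-numbered samples of different groups did not deviate together (median r = -0.0036 over 84 pairs, 4 of them over 0.1), so the replicate numbers were not taken as pairs. With replicate number as a block the number of genes called was that reported in every comparison (in males 6 for RAR against control), with Mpo lost and Camp gained there, and no other call changed. The dim reference of Ngp, Ltf and Cxcr2 and the dim thymocyte signal of Mmp9 limit what these 4 genes can show.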
